A study of Mus musculus with 24 samples.

Results

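The genes compared here were those whose RNA level in mouse hippocampus differed between 15 min and 1 h after fear conditioning, a training session in which a tone was paired with inescapable foot shocks. The comparison used the 12 libraries of these times of the 24 in the series, 6 at 15 min against 6 at 1 h, with genotype as a covariate. Each time held 3 libraries of wild type (WT) and 3 labelled Tob knockout (Tob-KO), all from C57BL/6J mice of 8 to 12 weeks, and 6 naive libraries (no conditioning) and 6 libraries at 3 h served as reference points. The labels call the 3 libraries of each group biological replicates, and the whole hippocampus was used, so that in these bulk samples fewer cells of a type and less RNA per cell cannot be told apart. The 12 libraries held 28847989 to 41595972 reads counted in genes, with a median of 31627271.

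Some features of the libraries bear on every comparison of the times. Tob1, the gene named in the knockout, was at 36.9 to 44.4 CPM in the 6 WT libraries of the 2 times. CPM here means reads of a gene divided by the effective library size. In the 6 libraries labelled Tob-KO Tob1 was at 59.3 to 68.6 CPM, so that its counts were not lower under that label. Counts per gene do not show whether this RNA was intact or made protein, and the labels were used as given. The pooled comparison draws no direction from the label. The score of 18 choroid plexus genes (their mean log2 CPM relative to the mean of all 24 libraries) ran from -3.09 to 2.45 at 15 min and from -2.47 to 2.42 at 1 h. It was below 0 in all 3 WT libraries and 1 labelled Tob-KO at 15 min and in 1 WT library at 1 h, and above 0 in the other 7. Library WT 15 min replicate 1 also stood apart with a neutrophil marker score of 2.35, against -0.38 to 0.13 in the other 15 min libraries. The part of these differences in the gene changes was not tested, and values with and without them are given beside the counts.

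Neuronal activity and stress switch on gene programs in waves. Immediate early genes are transcribed within minutes from promoters already bound by factors such as CREB and SRF, and many of their RNAs are unstable, so that their levels can drop quickly once transcription ends. Synaptic and signalling genes often follow, and glucocorticoid hormone released during stress acts on its own target genes through the glucocorticoid receptor.

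Between 15 min and 1 h, 42 of 18902 genes tested differed (0.222%), 24 being higher (0.127%) and 18 lower (0.0952%) at 1 h (edgeR quasi-likelihood test, Benjamini-Hochberg adjusted p of at most 0.05). The genes that fell included the activity-dependent transcription factor Npas4, the antiproliferative gene Btg2, the AU-rich element binding proteins Zfp36l1 and Zfp36l2, and the endothelial junction gene Cldn5. The genes that rose included the kinase Sgk1, the thyroid hormone deiodinase Dio2, the receptor kinase inhibitor Errfi1, the postsynaptic scaffold Homer1 and the insulin receptor substrate Irs2. Most changes were small, with 4 of the 42 reaching 2-fold (Ada and Sgk1 upwards, Npas4 and Myct1 downwards). The 6 libraries of one time lay wholly above or below those of the other for 35 of the 42 genes and for 224 of all genes tested (1.19%). Among the called genes 20 of these were higher, beside 145 of all tested (0.767%), and 15 lower, beside 79 (0.418%).

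The number of genes called depended on single libraries. The direction of the 42 did not change in any fit. However, the fits reused the libraries that had chosen these genes, so their direction was close to fixed in advance. For the 35 genes without overlap, leaving out 1 library could not turn it. Leaving out 1 library gave 5 genes without WT 1 h replicate 3, 6 without Tob-KO 1 h replicate 3, 11 without Tob-KO 1 h replicate 1 or 2, 13 without Tob-KO 15 min replicate 3, 14 and 20 without WT 15 min replicates 2 and 3, 15 and 24 without WT 1 h replicates 2 and 1, 37 and 99 without Tob-KO 15 min replicates 1 and 2, and 123 without WT 15 min replicate 1. With the choroid plexus score as a covariate 4 genes were called, namely Npas4, Btg2, Dio2 and Fosl2, and all 42 genes kept their direction with a median of 1.06 times their log2 fold change. DESeq2 called 379 genes, all 42 among them. Btg2, Dio2 and Npas4 were called in all 22 planned refits, a fold limit of 2 aside.

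**Figure D1:**
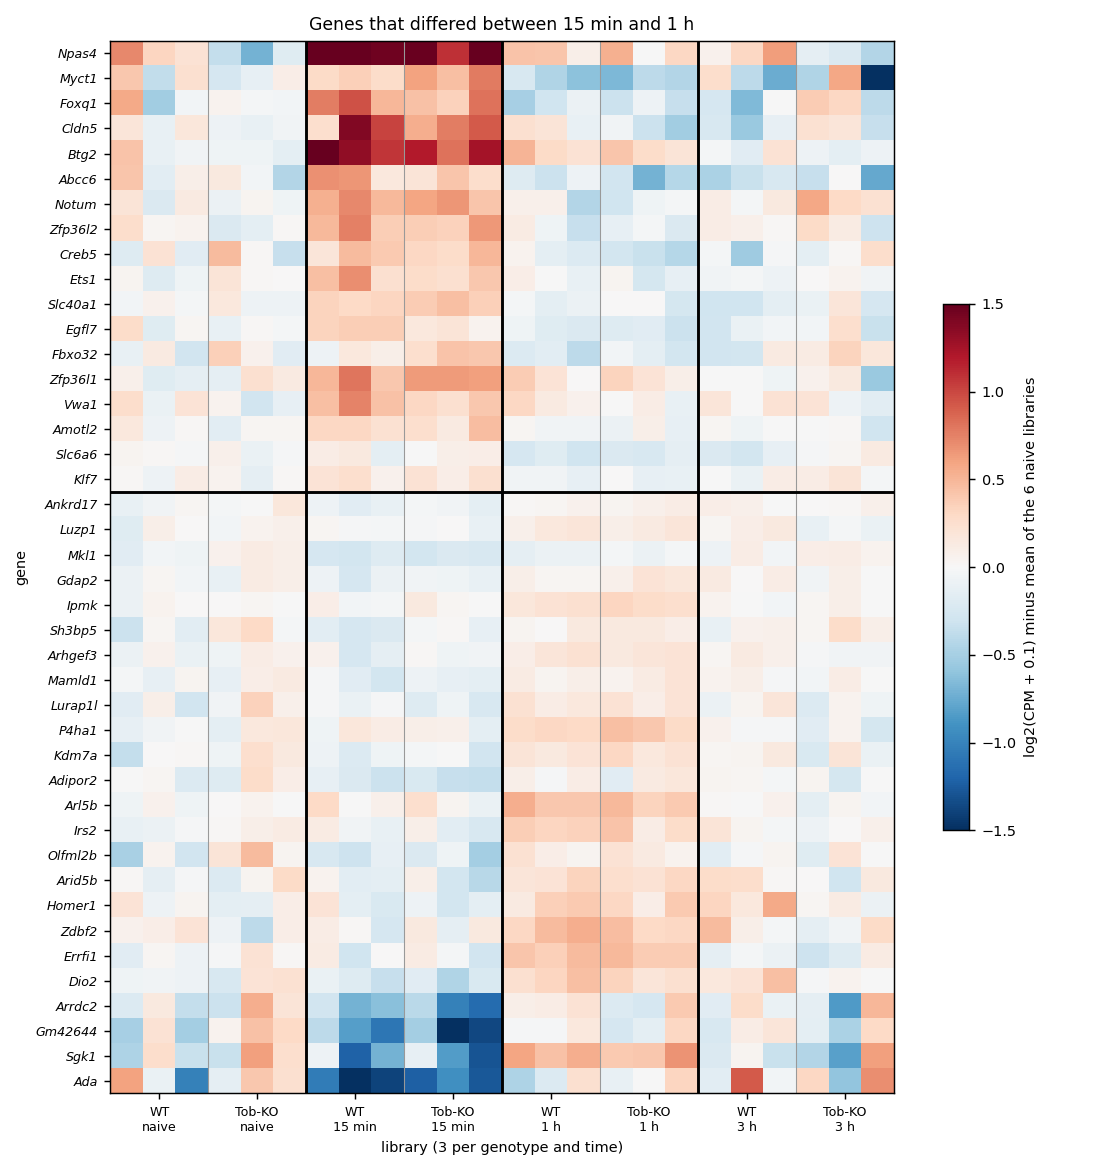
Heat map of the 42 genes that differed between 15 min and 1 h (y axis) in the 24 libraries (x axis, 3 per genotype and time), coloured by log2(CPM + 0.1) minus the mean of the 6 naive libraries. The 18 genes above the black line were lower and the 24 below it higher at 1 h, and at 3 h both groups lay near the naive level.

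Short stretches of promoter show a sequence shared by genes of both directions. Of the 42 genes, 31 had an entry in the RefSeq promoter table for GRCm38.p6 (250 bases before to 50 after a transcription start), with 46 promoters in all. The palindrome TGACGTCA, the full cAMP response element (CRE) that CREB family proteins bind, was found in 6 of these 46 promoters (13%) and in 588 of 32851 mouse promoters (1.79%). Counted by gene, it was present in 2 of 9 genes that fell and in 4 of 22 that rose, and in 3.31% of the 12616 tested genes with an entry. Genes with several promoters have more chances to hold it, and a match is a description of these letters, not a site of binding. The 6 windows are shown on the strand of the gene, with the element in capitals, Btg2 and Creb5 being the genes that fell.
Btg2: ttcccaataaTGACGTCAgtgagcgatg
Creb5: gaatcccacgTGACGTCAccgggggggt
Arl5b: aggcgcccgcTGACGTCAgcgcgccgac
Dio2: tctttctcaaTGACGTCAagatctttag
Errfi1: ctgcgggcgtTGACGTCAcgttgtcgct
Zdbf2: gcaccttcgcTGACGTCAgagctgcagt
The windows lie at chr1:134079304-134079331 (minus strand) for Btg2, chr6:53287248-53287275 (plus) for Creb5, chr2:15055189-15055216 (plus) for Arl5b, chr12:90739116-90739143 (minus) for Dio2, chr4:150855009-150855036 (plus) for Errfi1 and chr1:63273200-63273227 (plus) for Zdbf2. The element began 166 bases before the listed start of Btg2, 45 before that of Creb5, 121 before that of Arl5b, 95 before that of Dio2, 51 before that of Errfi1 and 59 before that of Zdbf2.

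The glucocorticoid response element, searched on both strands as the half-sites GNACA and TGTNC with 3 bases between them, was found at 1 of the 46 promoters (2.17%) and at 156 of all 32851 (0.475%). That promoter belongs to Sgk1, a classical glucocorticoid target, and the window lies at chr10:21993695-21993722 (plus strand) with the element beginning 188 bases before the listed start.
Sgk1: gcggaaaGAACAGAATGTTCtcggagat
The AP-1 element TGANTCA was found at 2 of the 46 promoters, those of Zfp36l1 and a second promoter of Creb5 (4.35%), and at 7.81% of all promoters. By gene it was present in 2 of 9 that fell, in none of 22 that rose and in 6.42% of tested genes.

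Npas4, a transcription factor induced by calcium entry in neurons, showed the largest fall among the genes called. Its level was 17.3, 22.9 and 34.3 CPM (lowest, median and highest of 6 libraries) at 15 min and 8.05, 10.4 and 11.7 CPM at 1 h, with no overlap. The log2 fold change was -1.32 ± 0.15 (SE; adjusted p = 0.00179), a 2.5-fold higher level at 15 min. In the naive libraries it ran from 4.9 to 13.3 CPM and at 3 h from 5.9 to 12.5 CPM, ranges that both overlap that at 1 h. Npas4 is a single gene on chromosome 19 (GRCm38 4984355 to 4990316, minus strand), and its listed promoter held none of the 3 elements searched.

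Btg2, a member of the BTG/TOB family of antiproliferative proteins that recruit deadenylases, fell with the smallest adjusted p of the genes lower at 1 h. It was at 26.3, 34.9 and 44.0 CPM at 15 min and at 17.1, 18.2 and 21.3 CPM at 1 h. The difference was -0.89 ± 0.09 (adjusted p = 0.0013), 1.86-fold. Against the naive libraries Btg2 was higher by 1.21 ± 0.11 at 15 min (adjusted p = 0.000632) and by 0.32 ± 0.09 at 1 h (adjusted p = 0.059), so that most of the early increase was gone by 1 h. Its relatives Tob1 and Tob2 were not called between the times (log2 fold changes of -0.08 ± 0.05 and 0.16 ± 0.09).

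Other immediate early genes were high at both times and were not called between them. Fos, the AP-1 subunit, was at 23.8, 38.5 and 64.9 CPM at 15 min and at 25.5, 29.9 and 36.7 CPM at 1 h, an overlapping pair of ranges with the narrower one at 1 h. Its log2 fold change between the times was -0.45 ± 0.18 (adjusted p = 0.293), and it was above naive by 2.1 ± 0.26 at 15 min and by 1.65 ± 0.19 at 1 h, both called. The zinc finger factor Egr2 was above naive by 2.66 ± 0.31 at 15 min and 2.30 ± 0.22 at 1 h, both called, with a difference of -0.35 ± 0.23 between them (adjusted p = 0.535). With the choroid plexus covariate the difference between the times was -0.13 for Fos and -0.17 for Egr2. Arc, the postsynaptic immediate early protein, gave -0.14 ± 0.19 and Junb -0.11 ± 0.14 between the times, and both turned positive with the choroid plexus covariate (0.24 and 0.14). A p above the limit does not show that these levels were equal.

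Ier2, an early gene of unsettled function, lay between these patterns. It was at 6.96, 11.7 and 16.2 CPM at 15 min and at 5.03, 7.02 and 7.52 CPM at 1 h, overlapping only at the lower end (log2 fold change -0.75 ± 0.15, adjusted p = 0.0591). Dusp1, a phosphatase that inactivates MAP kinases, gave -0.59 ± 0.18 (adjusted p = 0.177), and the matricellular gene Cyr61 gave -0.77 ± 0.24 (adjusted p = 0.187). With the choroid plexus covariate these values were -0.51, -0.22 and -0.46. In library WT 15 min replicate 1 Dusp1 was at 61.6 CPM and Cyr61 at 23.95 CPM. The other 15 min libraries held 22.4 to 45.3 CPM of Dusp1 and 5.75 to 11.7 CPM of Cyr61. At 1 h the ranges were 20.3 to 28.5 CPM and 4.91 to 9.25 CPM.

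**Figure D2:**
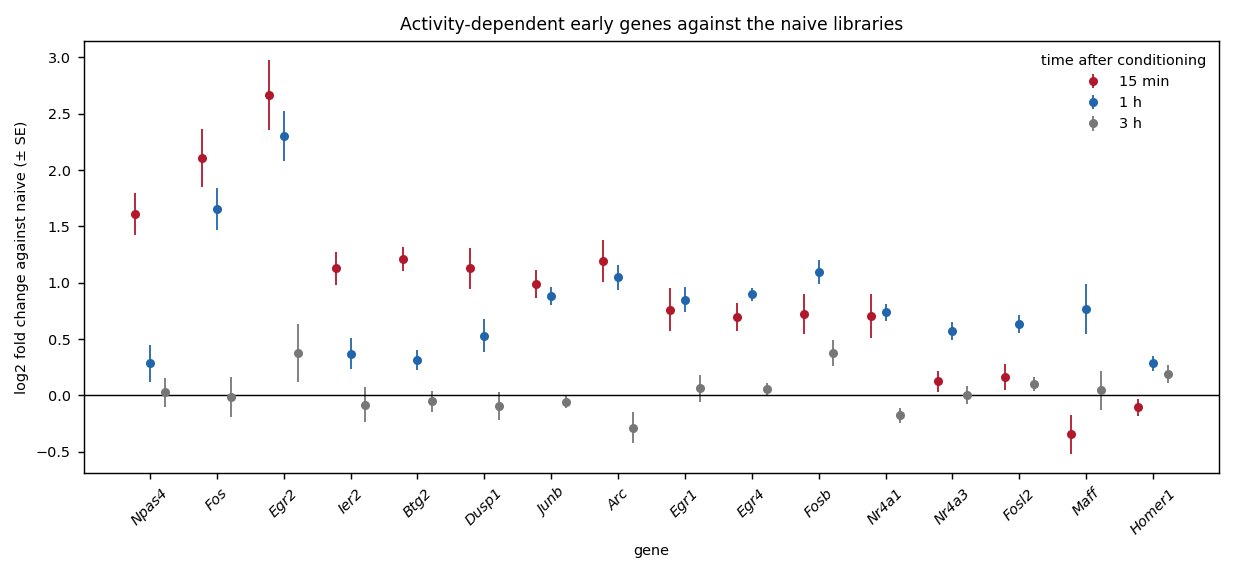
Log2 fold change against the 6 naive libraries (y axis, ± SE) for each time after conditioning in 16 activity-dependent genes (x axis). Npas4 went from 1.61 at 15 min to 0.29 at 1 h, whereas Fos (2.1 and 1.65) and Egr2 (2.66 and 2.30) stayed high at both, and the 3 h values lay between -0.29 and 0.38.

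A later group of transcription factors had higher values at 1 h than at 15 min without passing the test. Maff, a small Maf protein that partners AP-1 factors, was at 0.62 to 1.08 CPM at 15 min and 0.93 to 2.5 CPM at 1 h (1.11 ± 0.22, adjusted p = 0.0591). Nr4a3, an orphan nuclear receptor, was at 69.7, 89.0 and 105 CPM at 15 min and at 103, 122 and 137 CPM at 1 h (0.45 ± 0.09, adjusted p = 0.06). Fosl2, an AP-1 subunit, gave 0.47 ± 0.11 (adjusted p = 0.0857) and was called with the choroid plexus covariate at 0.71 (adjusted p = 0.0439). Against naive, Nr4a3 and Fosl2 were called at 1 h (0.57 ± 0.08 and 0.64 ± 0.08) and not at 15 min (0.12 ± 0.09 and 0.17 ± 0.11). DESeq2 called Ier2, Maff, Nr4a3 and Fosl2 between the times (adjusted p of 0.000206, 0.00108, 0.000602 and 0.0311).

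Npas4 and Btg2 were the genes called among 6 lists of early genes, read beside the 0.222% of all genes called. None of 9 tested AP-1 genes was called, with a median log2 fold change of 0.18 beside -0.01 over all genes tested. None of 6 genes of the Egr factors and their Nab corepressors was called (median 0.14), nor any of 3 Nr4a receptors (median 0.22). Of 14 other early transcription factors Npas4 was the 1 called (lower, median 0.10), of 14 Ier and growth arrest genes Btg2 was the 1 called (lower, median -0.02), and of 9 matricellular genes none was called (median 0.06). At an unadjusted p under 0.05, where 2616 of all 18902 genes lay (13.8%), there were 6 AP-1, 3 Egr and Nab, 1 Nr4a, 4 other early transcription factor, 2 Ier and growth arrest and 2 matricellular genes. DESeq2 called 2 AP-1 genes and 1 Nr4a gene higher, 1 other early transcription factor in each direction, 2 Ier and growth arrest genes lower and none of the other lists.

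Zfp36l2 and Zfp36l1, which bind AU-rich elements in the untranslated tails of RNAs and promote their deadenylation, both fell. Zfp36l2 was at 29.7, 31.5 and 39.6 CPM at 15 min and at 18.3, 22.0 and 25.6 CPM at 1 h, with no overlap (-0.60 ± 0.09, adjusted p = 0.015). Zfp36l1 was at 33.2, 38.7 and 43.8 CPM at 15 min and at 25.2, 28.9 and 32.6 CPM at 1 h, also with no overlap (-0.39 ± 0.07, adjusted p = 0.0477). Their relative Zfp36 gave -0.42 ± 0.13 and was not called (adjusted p = 0.177). The other 20 of 23 tested genes of RNA binding to untranslated regions and of deadenylation were not called either. The median of the list was 0.03, and 0.222% of all genes tested were called. At an unadjusted p under 0.05 by edgeR there were 8 of the 23 (34.8%), beside 13.8% of all genes. DESeq2 called 1 gene of the list higher and 2 lower.

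The AU-rich heptamer TATTTAT, searched on the sense strand in the longest annotated 3′ untranslated region of each gene (GENCODE vM21), was present in 8 of 18 genes that fell (44.4%), in 15 of 22 that rose and have one (68.2%), and in 30.1% of 14926 tested genes. These regions were longer in the called genes (median 1829 bases in those that fell and 2229 in those that rose) than in all tested genes (1168 bases). Per kilobase the heptamer occurred 0.332, 0.381 and 0.292 times. Both Zfp36l1 and Zfp36l2 themselves held 3 copies, and Npas4, whose region has 713 bases, held none.

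The genes that fell also included some known from endothelial cells. Cldn5, a claudin of the tight junctions of brain endothelium, was at 22.2, 33.5 and 49.0 CPM at 15 min and at 12.9, 17.5 and 21.9 CPM at 1 h. The log2 fold change was -0.94 ± 0.15 (adjusted p = 0.0286), 1.91-fold, and the ranges just failed to touch. Against naive it was higher by 0.86 ± 0.15 at 15 min (adjusted p = 0.0225), and at 1 h it differed by -0.08 ± 0.09. Egfl7, a secreted protein of endothelial cells, was at 9.28 to 11.6 CPM at 15 min and 7.10 to 8.52 CPM at 1 h (-0.44 ± 0.06, adjusted p = 0.015). Ets1, a transcription factor of endothelial and lymphoid cells, was at 12.7 to 17.5 CPM and 8.92 to 11.5 CPM (-0.44 ± 0.08, adjusted p = 0.0456). Myct1, an endothelial gene at 0.61 to 0.91 CPM and 0.27 to 0.40 CPM, gave -1.11 ± 0.19 and is outside the rule for naming genes because of its low level, so that it was chosen after its values were seen.

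The endothelial marker list had lower values at 1 h in all 8 of its genes. The median log2 fold change was -0.34, beside -0.01 over all genes. Of the 8 genes Cldn5 was called, where 0.222% of all genes were called. Flt1, a VEGF receptor, gave -0.34 ± 0.07 (adjusted p = 0.0696), Tek, the angiopoietin receptor, -0.34 ± 0.07 (adjusted p = 0.06) and Cdh5, the endothelial cadherin, -0.34 ± 0.09 (adjusted p = 0.116), each with no overlap between the times. Pecam1, Slco1a4, Ly6c1 and Itm2a gave -0.34, -0.26, -0.23 and -0.16. All 8 had an unadjusted p under 0.05 by edgeR, beside 13.8% of all genes. DESeq2 called 6 of the 8 lower, beside 379 of all genes in either direction. The summed level of the list was 237 to 326 CPM at 15 min and 191 to 223 CPM at 1 h. The endothelial score ran from 0.17 to 0.61 at 15 min and from -0.15 to 0.06 at 1 h, with a difference of -0.37 (exact two-sided permutation test within genotypes, p = 0.005, the smallest that 400 arrangements allow, and 0.055 adjusted over 11 marker lists). Whether the other falling genes followed the share of endothelial RNA was not tested.

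**Figure D3:**
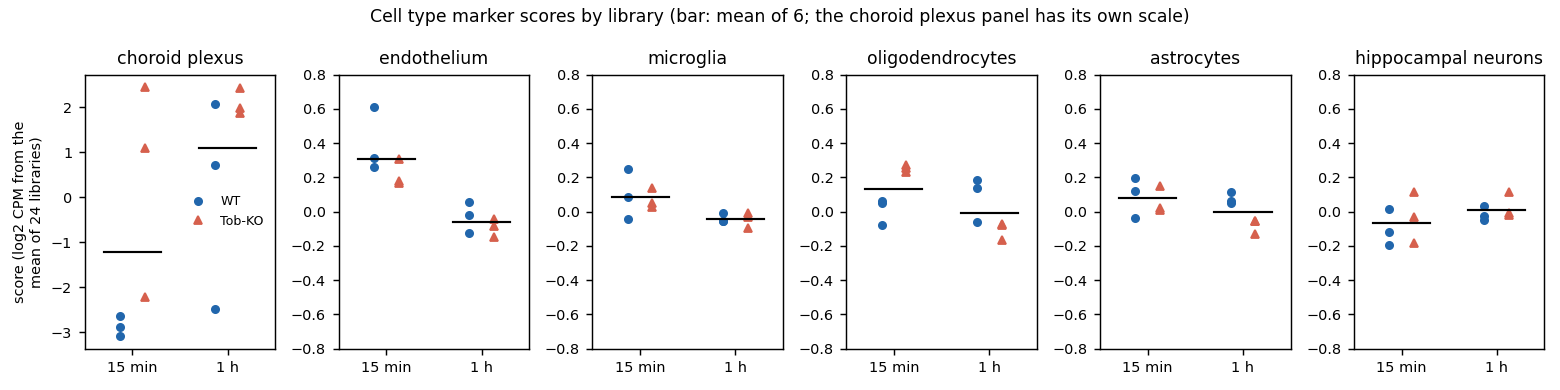
Marker scores (y axis, mean log2 CPM of each list relative to the mean of 24 libraries) of the 12 libraries at 15 min and 1 h (x axis) for 6 cell type lists, with bars at the mean of 6 libraries and a wider scale for choroid plexus. The endothelial scores of the times do not overlap (0.17 to 0.61 and -0.15 to 0.06), and those of choroid plexus overlap over most of their range.

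Scores of the other marker lists differed less between the times than that of choroid plexus. The microglial score was lower by 0.13 at 1 h (exact permutation p = 0.01, 0.055 adjusted), with all 8 genes lower, 5 at an unadjusted p under 0.05, none called by edgeR and 1 by DESeq2. The choroid plexus score was higher by 2.31 (exact permutation p = 0.04, 0.147 adjusted), with all 18 genes higher, 16 at an unadjusted p under 0.05, none called by edgeR or DESeq2, and summed levels of 36.2 to 3597 CPM at 15 min and 68.4 to 3414 CPM at 1 h. Differences for oligodendrocytes (-0.14), astrocytes (-0.08), hippocampal neurons (0.07), ependymal cilia (0.08), red cells (-0.17), neutrophils (-0.22), meningeal fibroblasts (0.07) and striatum, septum and thalamus (0.00) had exact permutation p of 0.13 to 1. All 8 oligodendrocyte and all 8 astrocyte genes had lower values at 1 h. No gene of these lists was called by either tool (5 at an unadjusted p under 0.05, beside 13.8% of all genes), and none was at 0 in all 12 libraries. The hippocampal neuron markers, summing to 6827 to 7601 CPM over both times, were present in every library.

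The remaining genes that fell have diverse known roles. Foxq1, a forkhead transcription factor, was at 3.66, 4.5 and 5.63 CPM at 15 min and at 1.98, 2.29 and 2.71 CPM at 1 h (-0.94 ± 0.13, adjusted p = 0.0116). Creb5, a transcription factor of the CREB/ATF group, was at 8.62, 9.74 and 10.8 CPM and at 5.63, 6.44 and 7.91 CPM (-0.58 ± 0.08, adjusted p = 0.015). Slc40a1, the iron exporter ferroportin, was at 10.6 to 11.8 CPM at 15 min and 7.17 to 8.64 CPM at 1 h (-0.44 ± 0.06, adjusted p = 0.015). Notum, an enzyme that inactivates Wnt ligands, gave -0.70 ± 0.12, the transporter Abcc6 -0.79 ± 0.14, the junction-associated Amotl2 -0.31 ± 0.06 and the transcription factor Klf7 -0.25 ± 0.04, all with no overlap. The ranges of the ubiquitin ligase subunit Fbxo32 (-0.41), the matrix protein Vwa1 (-0.34) and the taurine transporter Slc6a6 (-0.27) overlapped, and these 3 were named after their values were seen.

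Sgk1, a serine/threonine kinase induced by glucocorticoids and by activity, showed the largest rise among called genes above 1 CPM. It was at 44.0, 63.0 and 102 CPM at 15 min and at 142, 152 and 172 CPM at 1 h, with no overlap. The log2 fold change was 1.15 ± 0.18 (adjusted p = 0.0282), 2.22-fold. The naive libraries spread from 78.1 to 165 CPM, a range that overlaps those of both times, and neither time was called against naive (-0.68 ± 0.24, adjusted p = 0.181, and 0.47 ± 0.15, adjusted p = 0.096).

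Arrdc2, an arrestin domain protein listed with the glucocorticoid-responsive genes, also rose. It was at 7.65, 10.8 and 14.0 CPM at 15 min and at 14.4, 18.4 and 22.6 CPM at 1 h (0.76 ± 0.14, adjusted p = 0.0456), beside 13.4 to 25.2 CPM in naive libraries. The unannotated gene Gm42644 was at 3.18, 4.89 and 7.24 CPM and at 8.03, 9.40 and 11.8 CPM (0.94 ± 0.17, adjusted p = 0.0464), beside 6.67 to 12.9 CPM in naive libraries. Ada, adenosine deaminase, rose from 0.21 to 0.39 CPM at 15 min to 0.58 to 1.07 CPM at 1 h (1.46 ± 0.21, adjusted p = 0.015) and was called lower than naive at 15 min (-1.57 ± 0.28, adjusted p = 0.03), and it was named after its values were seen because of its low level. At 1 h these 3 genes differed from naive by 0.05, -0.01 and -0.11 on the log2 scale, and none was called.

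The list of 21 glucocorticoid-responsive genes had a median of 0.24 between the times, beside -0.01 over all genes tested, and 17 were above 0. Sgk1 and Arrdc2 were called higher and none lower, where 0.222% of all genes were called. At an unadjusted p under 0.05 by edgeR there were 13 of the 21 (61.9%), beside 13.8% of all genes. Tsc22d3, which encodes the glucocorticoid-induced leucine zipper protein, was at 47.3, 68.2 and 87.3 CPM at 15 min and at 86.5, 92.3 and 111 CPM at 1 h (0.53 ± 0.11, adjusted p = 0.0597). The factors Klf15 (0.40 ± 0.08, adjusted p = 0.06) and Klf9 (0.20 ± 0.04, adjusted p = 0.0718) and the NF-kappaB inhibitor Nfkbia (0.48 ± 0.10, adjusted p = 0.0696) lay just outside the limit, and Fkbp5, the receptor co-chaperone, gave 0.23 ± 0.06 (adjusted p = 0.108). DESeq2 called 8 of the 21 higher and 1, Lcn2, lower. Against naive, the list's median was -0.22 at 15 min, 0.02 at 1 h and -0.01 at 3 h.

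The lipid droplet gene Plin4 and the hypoxia-related factor Hif3a, also of this list, lay far below naive at 15 min. Plin4 was at 6.90, 20.9 and 34.3 CPM in naive libraries, at 1.89, 3.52 and 5.17 CPM at 15 min and at 3.14, 6.17 and 15.0 CPM at 1 h. It was called lower than naive at 15 min (-2.63 ± 0.36, adjusted p = 0.00569), and the change between the times was 1.19 ± 0.40 (adjusted p = 0.216). Hif3a gave -1.51 ± 0.22 at 15 min (adjusted p = 0.0117) and -0.81 ± 0.19 at 1 h (adjusted p = 0.0271) against naive, with 0.69 ± 0.27 between the times. Their values between the times were 0.52 and 0.05 in WT and 1.89 and 1.39 in libraries labelled Tob-KO, and the interaction was not called (adjusted p = 0.866 and 0.59). In the WT libraries with a choroid plexus score below 0 both turned negative (-0.16 and -0.28), and in those labelled Tob-KO with a score above 0 they were 2.04 and 1.49.

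Dio2, the enzyme that activates thyroid hormone in glia, had the smallest adjusted p of the rising genes. It was at 59.4, 70.2 and 75.6 CPM at 15 min and at 91.8, 98.8 and 111 CPM at 1 h, with no overlap (0.55 ± 0.06, adjusted p = 0.0013). At 3 h it was at 80.2 to 111 CPM, which overlaps the 1 h range, and in naive libraries at 68.8 to 95.1 CPM. With the choroid plexus covariate its log2 fold change was 0.61 (adjusted p = 0.00571).

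Errfi1 and Homer1 represent genes that were near naive at 15 min and above it at 1 h. Errfi1, a feedback inhibitor of the EGF receptor family, was at 37.8, 46.0 and 50.6 CPM at 15 min and at 59.4, 61.2 and 64.9 CPM at 1 h (0.47 ± 0.07, adjusted p = 0.0161), beside 41.2 to 53.8 CPM in naive and 37.3 to 50.7 CPM in 3 h libraries. Homer1, a scaffold that links metabotropic glutamate receptors to intracellular calcium stores, was at 132, 144 and 185 CPM and at 171, 202 and 209 CPM, with overlapping ranges (0.39 ± 0.07, adjusted p = 0.0499). Counts per gene cannot separate its short activity-induced isoform from the long one. Homer1 was also called with DESeq2, without a filter and with spread estimated from all 24 libraries. It was not called with RLE scaling, library size alone, at least 1 CPM in 6 libraries or no genotype term. The same held with either replicate block and with the choroid plexus covariate. Of the fits without 1 library, it was called only without WT 15 min replicate 1 or WT 1 h replicate 1.

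Arl5b, a small GTPase of the Golgi, was at 34.0, 37.8 and 44.6 CPM at 15 min and at 46.0, 48.1 and 53.1 CPM at 1 h, above all naive and 3 h libraries (0.34 ± 0.06, adjusted p = 0.0464). Irs2, which relays insulin and IGF signals, was at 83.4, 93.4 and 108 CPM and at 107, 124 and 133 CPM (0.37 ± 0.06, adjusted p = 0.0299), and its ranges met. P4ha1, a subunit of collagen prolyl hydroxylase, gave 0.30 ± 0.05, the imprinted gene Zdbf2 0.40 ± 0.07 and Ipmk, an inositol phosphate kinase, 0.22 ± 0.04. Against naive at 1 h, Errfi1, Homer1, Arl5b, Irs2, P4ha1, Zdbf2, Ipmk, Dio2 and Arhgef3 were called higher (9 of the 24). Their log2 fold changes were 0.18 to 0.44, and none of these genes was called against naive at 15 min. Of all 18882 genes tested, 2.2% were called higher than naive at 1 h. The comparisons with naive share libraries with the one that chose the 24 genes, so this pattern was partly fixed in advance.

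The list of 18 synaptic effector genes had Homer1 and Arl5b called higher by edgeR and none lower, where 0.222% of all genes were called. Its median was 0.07, and 7 of the 18 (38.9%) had an unadjusted p below 0.05 by edgeR, beside 13.8% of all genes. DESeq2 called 3 of the 18 higher and 1 lower, beside 379 of all genes in either direction. Nedd9, an adaptor of focal adhesions, was at 12.1, 12.8 and 14.4 CPM at 15 min and at 14.5, 15.7 and 17.3 CPM at 1 h, with no overlap, but did not pass the test (0.29 ± 0.06, adjusted p = 0.0597). Of 17 feedback inhibitors of ERK signalling Errfi1 was the 1 called (median 0.00). At an unadjusted p under 0.05 by edgeR there were 6 of the 17 (35.3%), beside 13.8% of all genes. DESeq2 called 1 of the 17 higher and 1 lower. Dusp5, a phosphatase specific to nuclear ERK, gave 0.46 ± 0.15 (adjusted p = 0.216). None of 15 secreted activity-regulated factors was called (median 0.00, 3 at an unadjusted p under 0.05, 1 by DESeq2), and Bdnf, the neurotrophin, gave 0.17 ± 0.05 (adjusted p = 0.135).

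The other rising genes had smaller changes. The histone demethylase Kdm7a gave 0.32 ± 0.05 and the chromatin factor Arid5b 0.39 ± 0.07, both with no overlap, as did Olfml2b (0.38 ± 0.07), Lurap1l (0.28 ± 0.05) and Mamld1 (0.25 ± 0.04). The adiponectin receptor Adipor2 (0.33), Sh3bp5 (0.23), Gdap2 (0.21), Luzp1 (0.17) and Ankrd17 (0.16) were named after their values were seen. So was Mkl1, a coactivator of SRF, at 73.5, 74.9 and 77.8 CPM at 15 min and at 81.3, 83.9 and 87.5 CPM at 1 h (0.17 ± 0.03, adjusted p = 0.0289). Mkl1 was below naive by 0.24 at 15 min (log2 fold change -0.24 ± 0.04, adjusted p = 0.0183) and was, with Ada, the 1 other rising gene called lower there.

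**Figure D4:**
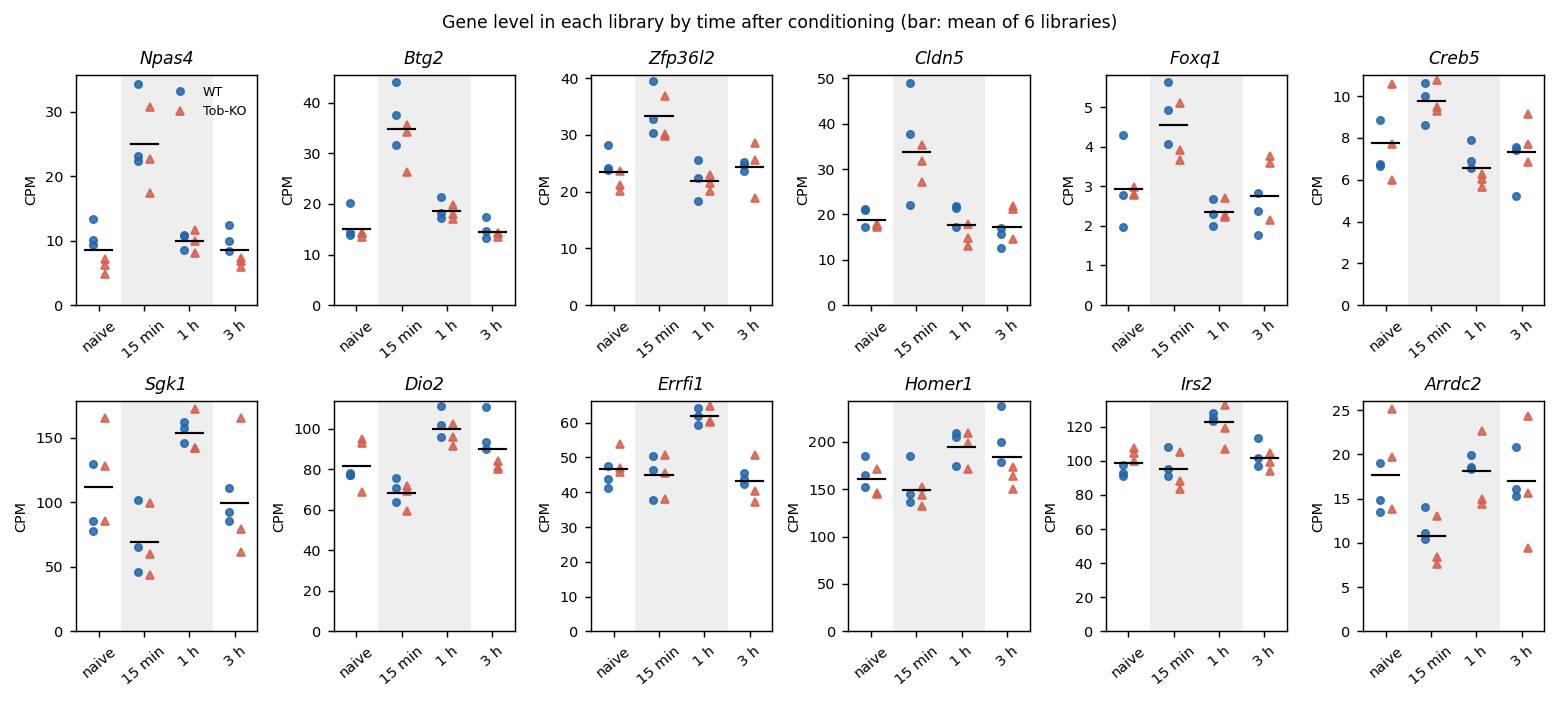
Level in CPM (y axis, from 0) of 12 genes in each of the 24 libraries by time (x axis), with WT as circles, libraries labelled Tob-KO as triangles and bars at the mean of 6 libraries; the grey band marks the 2 times compared. The 6 genes in the upper row peak at 15 min, and in the lower row Sgk1 and Arrdc2 dip at 15 min while Errfi1 and Irs2 peak at 1 h.

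Genes of other stress-related lists were not called between the times. The clock list had 0 of 16 called and a median of 0.08, with Per1 at 57.1, 72.7 and 127 CPM at 15 min and at 119, 127 and 139 CPM at 1 h (0.63 ± 0.17, adjusted p = 0.127). The cytosolic heat shock list had 0 of 18 called and a median of 0.09, the list of chaperones of the endoplasmic reticulum 0 of 18 and 0.01, and the inflammatory list 0 of 8 tested of 17 listed and -0.21. At an unadjusted p under 0.05 these lists held 5, 6, 2 and 2 genes, beside 13.8% of all genes, and DESeq2 called 0, 2, 1 and 1. Lcn2, an acute phase gene of the glucocorticoid list, reached 4.74 CPM in 1 library at 15 min beside a median of 0.31 CPM there, and lay at 0.03 to 0.13 CPM at 1 h (-3.58 ± 0.87, adjusted p = 0.104).

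Beside naive, the 2 groups of called genes had separate courses, although these comparisons share the 15 min or the 1 h libraries with the one that chose the genes. The 18 genes that fell had a median log2 fold change of 0.42 against naive at 15 min (0.05 to 1.61, 8 called higher, where 0.657% of 19025 genes tested were called, 0.384% higher and 0.273% lower) and of -0.09 at 1 h (-0.60 to 0.32). At 1 h 1 of them, Slc6a6, was called lower, where 5.27% of 18882 genes passed the test, 2.2% upwards and 3.07% downwards. The 24 genes that rose had a median of -0.11 at 15 min (-1.57 to 0.10, 2 called lower) and of 0.17 at 1 h (-0.11 to 0.47, 9 called higher).

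The 3 h libraries share none with the times compared. Against naive, the genes that fell had a median of -0.06 at 3 h (-0.40 to 0.23) and the genes that rose one of 0.02 (-0.16 to 0.21). No gene of the 18935 tested was called at 3 h by edgeR, where 1750 had an unadjusted p under 0.05 and DESeq2 called 28. Homer1 (0.19 ± 0.08) and Dio2 (0.14 ± 0.09) had small positive values at 3 h, with adjusted p of 0.512 and 0.68.

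The 42 genes moved in the same direction in both genotypes. None had an unadjusted interaction p under 0.05, but since the call used both genotypes together these values were not independent of it. Npas4 gave -1.40 in WT and -1.25 in libraries labelled Tob-KO, Btg2 -0.99 and -0.81, Sgk1 1.12 and 1.17, and Errfi1 0.47 in each. Cldn5 gave -0.84 and -1.04, and Creb5 -0.45 and -0.72. In the test of the interaction itself 0 of 18902 genes were called by edgeR (0%), where 1105 had an unadjusted p under 0.05, and DESeq2 called 34.

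**Figure D5:**
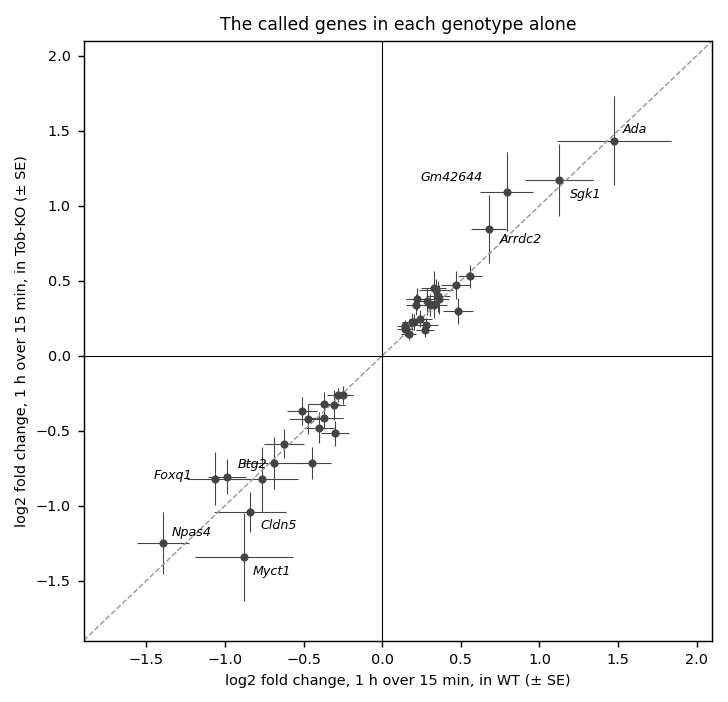
Log2 fold change of 1 h over 15 min for the 42 called genes in WT (x axis) and in libraries labelled Tob-KO (y axis), each ± SE from 3 against 3 libraries, with the line of equality dashed. All 42 points lie in the lower left or upper right part of the plot, from Npas4 (-1.40 and -1.25) to Ada (1.47 and 1.43).

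Each genotype alone, with 3 libraries against 3, gave few calls on libraries that the other did not share. In WT 1 gene of 18267 was called (0.00547%), the endothelial gene Thbd at -0.86 ± 0.08 (adjusted p = 0.0147). Thbd gave 0.24 ± 0.21 in libraries labelled Tob-KO. In those, 5 of 18220 genes were called (0.0274%, with 0.022% lower and 0.00549% higher), the myelin genes Cnp, Mag and Bcas1 and the membrane protein gene Tmem88b lower by log2 fold changes of -0.36 to -0.42, and the inositol transporter Slc5a3 higher by 0.54. In WT the same 4 falling genes gave -0.02 to 0.12 and Slc5a3 gave 0.25. The difference between genotypes was not called for any of these 6 genes, the smallest adjusted interaction p being 0.208 for Mag, and all 6 were named after their values were seen. The oligodendrocyte score was 0.23 to 0.27 at 15 min and -0.16 to -0.07 at 1 h in libraries labelled Tob-KO, and -0.08 to 0.06 and -0.06 to 0.19 in WT. Leaving out 1 library gave 0 to 66 genes in WT and 0 to 20 in libraries labelled Tob-KO.

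Genes chosen in one genotype can be read in the other. Of 259 genes higher at 1 h in WT at an unadjusted p under 0.01, 212 had a positive value in libraries labelled Tob-KO (81.9%), and of 179 lower ones 123 had a negative value there (68.7%). Chosen in the libraries labelled Tob-KO, 164 of 219 higher genes (74.9%) and 147 of 270 lower genes (54.4%) had the same sign in WT. Over all 17825 genes tested in both, the share with the same sign was 59.3%. The median size in the other genotype was smaller than in the one that chose the genes, for instance 0.31 in WT and 0.12 in libraries labelled Tob-KO for the first set.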

How the data were processed

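The deposited table held whole-number counts of reads per gene, which the authors made from 150-bp paired-end reads of a poly(A)-selected directional library, aligned with STAR 2.6.1d to GRCm38 and counted with HTSeq 0.9.0 (per the labels). The strand setting and the annotation release are not given in the sources used here. All 24 columns were mapped to samples. Genes at 0.2 CPM or more in 2 of the libraries compared were kept. Time was tested with genotype as a covariate by edgeR 4.0.16 (TMM scaling, quasi-likelihood), and DESeq2 1.42.0, other scalings, filters, covariates and left-out libraries were alternatives. The code was tested on simulated data. Levels are TMM-scaled CPM. SEs were taken from the log2 fold change and its F value. Same-group libraries differed by 3.68 to 22.8 times the counting variance, so none was a copy. Positions come from GENCODE vM21.

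Members, gene lists and tests were chosen with earlier results of these data known. Named genes were Tob1, the 15 largest changes per direction among called genes of 1 CPM or more without overlap (14 fell), called members of the lists, and other list members with their values.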

Additional observations from a re-analysis of the deposited data

How the results depend on the processing

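For 1 h against 15 min, 42 genes were called, and the alternatives gave 379 (DESeq2), 136 (no filter), 24 (library size alone), 25 (at least 1 CPM in 6 libraries), 4 (a fold of at least 2), 4 (choroid plexus covariate) and 77 (spread estimated from all 24 libraries), with RLE scaling (40) and no genotype term (34) near the main count. Libraries with a choroid plexus score above 0 labelled Tob-KO (2 against 3) gave 10 and WT libraries below 0 (3 against 1, the lone one assumed to vary like the others) gave 0, with 543 at an unadjusted p under 0.05. Both subsets were chosen after seeing the data. The cause of these shifts was not tested. All 42 genes kept their direction wherever they were tested, in fits that reused the libraries that had chosen them. Leaving out 1 library gave 5 to 123.

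With a replicate block of 6 pairs 12 genes were called, and with 3 replicate numbers 13. Same-numbered libraries of the 2 times did not vary together (r of -0.12 to -0.01, and no library correlated best with its own number), so the numbers were not taken as pairs. With the replicate block WT gave 4 and Tob-KO 0.

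For the interaction DESeq2 gave 34 and no filter 42 (0 to 2 without 1 library). WT gave 74 and 211 (0 to 66), Tob-KO 171 and 147 (0 to 20), 15 min against naive 736 and 338 (33 to 355), and 1 h against naive 523 to 1164. At 3 h DESeq2 gave 28 (0 without any 1 library).

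The sign turned for Junb (0.138) and Arc (0.235) with the choroid plexus covariate. In the choroid-rich subset it turned for Junb (0.211), Arc (0.359), Ly6c1 (0.0603) and Thbd (0.431). In the choroid-poor subset it turned for Plin4 (-0.162), Hif3a (-0.28), Cnp (0.0789), Mag (0.173), Tmem88b (0.0256) and Bcas1 (0.0471). Without 1 library Junb ran from -0.183 to 0.0189, Arc from -0.243 to 0.0389 and Nr4a1 from -0.066 to 0.225.

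Marker score differences ran, without 1 library, from 1.94 to 3.05 (choroid plexus, exact permutation p of 0.005 to 0.115), -0.0409 to 0.201 (ependymal cilia), -0.365 to 0.181 (neutrophils), -0.124 to 0.137 (striatum, septum and thalamus, -0.0156 without its most abundant gene), -0.284 to -0.0255 (red cells), 0.0175 to 0.166 (meningeal fibroblasts), 0.0492 to 0.11 (hippocampal neurons) and -0.102 to -0.0535 (astrocytes).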
